A study of Rattus norvegicus with 10 samples.

Results

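A panel of 47 rat genes with roles in DNA replication and in mitosis was followed in mammary glands of 5 ACI and 5 Brown Norway (BN) rats, 1 array per rat. The members were taken from textbook roles: 13 act in S phase and 34 in mitosis. A gene was measured where a probe set carried its symbol alone, and was represented by its brightest probe set on average. By that rule 38 members were measured (11 S-phase and 27 mitotic) among 14217 measured genes. Cdc6, Rrm2, Cdc25c, Ndc80, Nek2, Tpx2, Anln, Hmgb2 and Ncapg had no probe set of their own and were left out of all expression results.

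All rats were females. ACI rats were of the ACI/SegHsd substrain, and the BN strain came from Harlan Sprague Dawley. Every rat of both strains carried a subcutaneous 17beta-estradiol implant from 9 weeks of age and was killed after 12 weeks of treatment, before palpable tumors, so untreated glands do not enter any comparison. ACI is the strain that develops mammary cancer under this treatment and BN is the resistant strain. RNA came from whole gland of single rats, in which fewer dividing cells and less RNA per cell cannot be told apart. In both strains the animal IDs of rats 1 to 3 open with S and those of rats 4 and 5 with H, and the labels do not say what these letters mean. The extraction notes of the BN samples speak of ACI rats, as do those of the ACI samples.

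Cells copy their DNA once per division and then segregate it. Before S phase the Mcm2 to Mcm7 helicase is loaded at origins, cyclin E with its kinase starts replication, and the clamp Pcna holds the polymerases on DNA. Mitosis is driven by Cdk1 with cyclins A and B, held by a checkpoint at unattached kinetochores, and ended by the anaphase-promoting complex and the contractile ring. S-phase genes are known targets of E2F factors, whereas many mitotic genes carry a cell cycle homology region (CHR) and CCAAT boxes near their start and are transcribed later in the cycle. Estradiol drives proliferation of mammary epithelium.

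Promoter letters of both kinds were searched in the panel, and the promoters printed are those of every called member, and of Pcna for its interaction described further on, that had a promoter entry. RefSeq promoters (GRCr8 build, 250 bases before to 50 after the start) were matched by symbol for 38 listed members, 9 S-phase and 29 mitotic, of 33469 windows. These are not the 38 measured members: Cdc25c, Ndc80, Nek2, Anln, Hmgb2 and Ncapg, which had no probe set, are among them. The letters searched on both strands were TTTGAA and TTCGAA for CHR, CCAAT for the CCAAT box, and TTCGCGC or TTGGCGC or GCGGGAA for E2F. TTCGAA is its own reverse complement, and some E2F matches overlap each other or a CCAAT box. CHR letters stood in 23 of the 29 mitotic promoters (79.3%), in 3 of the 9 S-phase promoters (33.3%) and in 19.7% of all windows. E2F letters stood in 7 S-phase promoters (77.8%), in 6 mitotic promoters (20.7%) and in 7.52% of all windows. CCAAT stood in 79.3% of the mitotic, 66.7% of the S-phase and 37.5% of all promoters. A match describes letters and is no evidence of binding. The 120 bases before each start follow, 5′ to 3′ along the gene's strand, with matches in capitals. The first 6 promoters are mitotic and the last 3, Mcm2, Pcna and Ccne1, are S-phase. The capitals at the end of Ect2 open a CHR match that runs past the start. Mad2l1, Aurka, Pcna and Ccne1 held none of these letters in the bases shown.
Cks2 (chr17:13727520-13727639, minus strand): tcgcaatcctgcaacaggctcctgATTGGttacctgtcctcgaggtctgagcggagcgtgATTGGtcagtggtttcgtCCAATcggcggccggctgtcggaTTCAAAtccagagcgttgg
Mad2l1 (chr4:97236389-97236508, plus strand): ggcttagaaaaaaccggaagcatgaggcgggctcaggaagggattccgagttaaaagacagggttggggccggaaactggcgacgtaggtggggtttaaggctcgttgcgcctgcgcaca
Aurka (chr3:181560770-181560889, minus strand): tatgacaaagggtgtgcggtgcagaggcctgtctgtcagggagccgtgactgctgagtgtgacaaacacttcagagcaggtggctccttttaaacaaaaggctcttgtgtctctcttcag
Ect2 (chr2:111966627-111966746, minus strand): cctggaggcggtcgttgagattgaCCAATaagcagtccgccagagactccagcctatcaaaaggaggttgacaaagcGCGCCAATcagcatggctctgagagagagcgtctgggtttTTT
Top2a (chr10:84473094-84473213, minus strand): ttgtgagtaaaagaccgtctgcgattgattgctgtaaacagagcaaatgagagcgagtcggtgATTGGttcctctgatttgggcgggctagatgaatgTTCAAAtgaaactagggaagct
Smc4 (chr2:155550142-155550261, plus strand): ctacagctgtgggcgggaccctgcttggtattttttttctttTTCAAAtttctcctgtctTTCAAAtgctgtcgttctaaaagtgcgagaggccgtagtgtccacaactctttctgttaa
Mcm2 (chr4:122918095-122918214, minus strand): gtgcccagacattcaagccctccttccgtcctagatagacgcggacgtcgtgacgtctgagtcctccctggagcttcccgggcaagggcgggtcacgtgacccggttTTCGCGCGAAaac
Pcna (chr3:139955821-139955940, minus strand): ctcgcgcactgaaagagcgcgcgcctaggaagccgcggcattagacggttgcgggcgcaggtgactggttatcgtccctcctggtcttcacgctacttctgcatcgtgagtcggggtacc
Ccne1 (chr1:99927910-99928029, minus strand): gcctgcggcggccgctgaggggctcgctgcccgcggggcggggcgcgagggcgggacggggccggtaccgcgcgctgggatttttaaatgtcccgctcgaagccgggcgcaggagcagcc

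Chromosome and cytokinesis genes held the largest strain differences. With limma and an adjusted p under 0.05, 7 of the 38 members (18.4%) were higher in ACI: Smc4, Ect2, Top2a, Mcm4, Cks2, Aurka and Mcm2. Ccne1 and Mad2l1 (5.26%) were higher in BN. Over all 14217 genes, 8.29% passed with ACI higher and 9.12% with BN higher. Among the 10098 genes that were not near background, meaning not under a log2 value of 4 in every rat of both strains, the shares were 11.5% and 12.7%. ACI rats lay wholly above BN rats in 6 members (Ccna2, Cks2, Aurka, Ect2, Top2a and Smc4), against 8.30% of all genes, and no member had every BN rat above every ACI rat, against 8.32% of all genes. All levels and differences below are on the log2 scale of the deposited values, the differences are ACI minus BN, and each mean is over 5 rats with its SD.

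**Figure D1:**
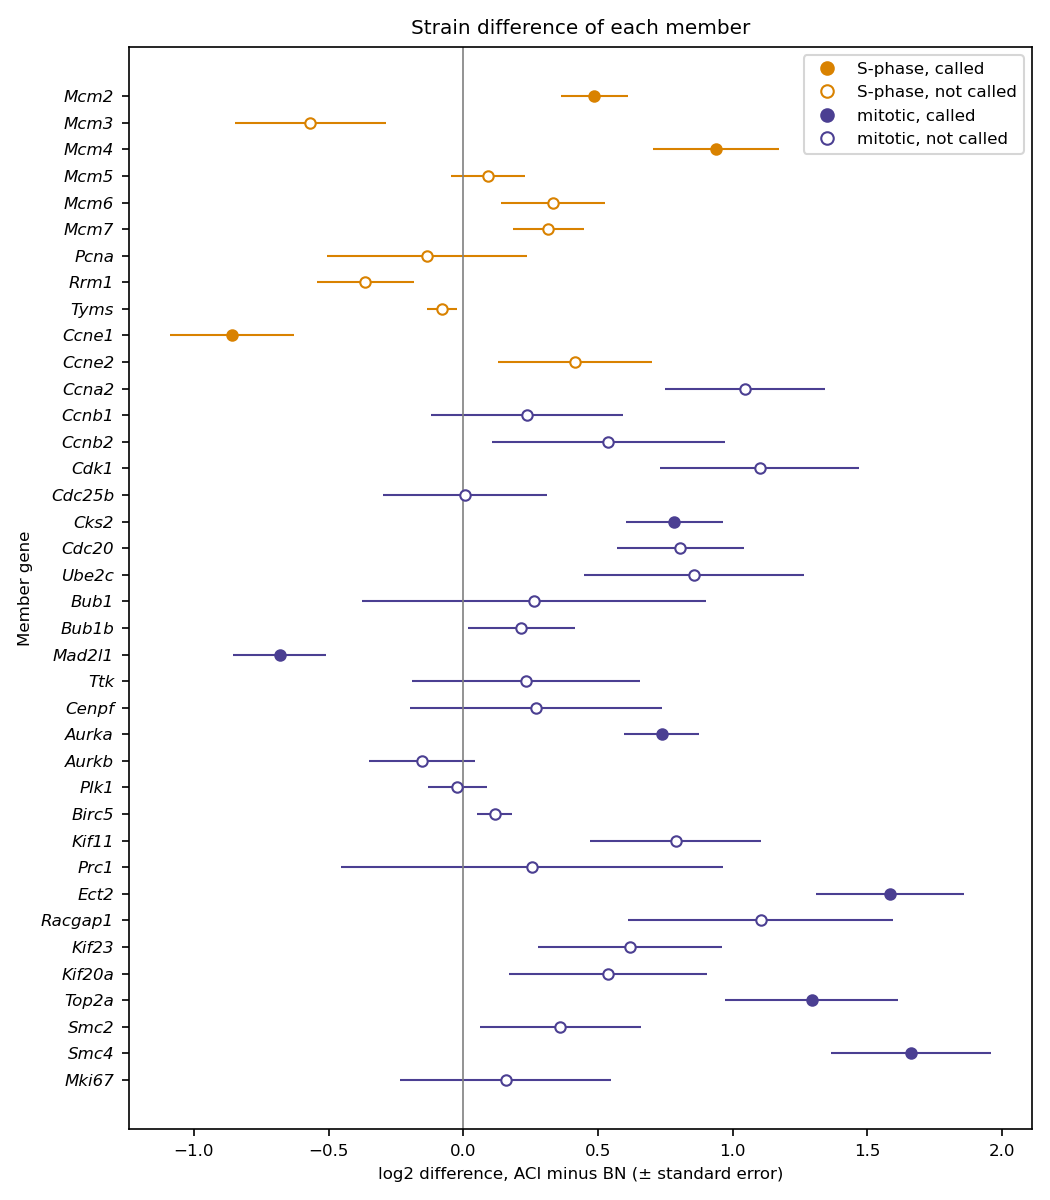
Each point is the log2 difference (ACI minus BN) of 1 member, with its standard error from limma over 5 rats per strain, ordered by role from licensing at the top to Mki67 at the bottom. Filled points passed an adjusted p under 0.05, 7 to the right of 0 and 2 to the left; the mitotic points lie mostly to the right and the S-phase points on both sides.

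Among the licensing and fork genes, Mcm2 and Mcm4 were higher in ACI and the rest were not called. Mcm4, a helicase subunit, measured 8.08, 8.25, 8.59, 8.89 and 8.49 in ACI rats 1 to 5 and 7.61, 7.31, 7.41, 8.22 and 7.06 in BN rats 1 to 5. BN rat 4 alone reached the ACI range. The difference was 0.94 (SE 0.235, limma adjusted p = 0.0341), 1.92-fold. Mcm2, another helicase subunit, measured 8.47, 8.66, 8.66, 8.76 and 9.10 in ACI and 8.20, 8.11, 8.32, 8.49 and 8.10 in BN. BN rat 4 again stood just above the lowest ACI rat, and the difference was 0.49 (SE 0.124, limma adjusted p = 0.0363). The other subunits did not move as a block: differences were 0.33 for Mcm6, 0.32 for Mcm7, 0.09 for Mcm5 and -0.57 for Mcm3, with limma adjusted p-values from 0.177 to 0.767.

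Pcna, the replication clamp, measured 10.77, 10.70, 10.66, 11.08 and 11.10 in ACI rats and 11.73, 11.57, 11.42, 10.44 and 9.83 in BN rats. BN rats 1 to 3 lay above every ACI rat and BN rats 4 and 5 below every ACI rat. The strain means of 10.86 ± 0.212 and 11.00 ± 0.824 therefore differed by only -0.14 (SE 0.371, limma adjusted p = 0.985).

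The genes of nucleotide supply were not called. Rrm1, the large subunit of ribonucleotide reductase, measured 8.52, 8.58, 8.79, 8.77 and 9.14 in ACI and 9.61, 9.10, 9.11, 9.13 and 8.67 in BN, a difference of -0.36 (SE 0.180, limma adjusted p = 0.264). Tyms, thymidylate synthase, lay between 3.90 and 4.20 in all rats. The cyclin E genes had opposite signs. Ccne1 measured 3.44, 3.72, 4.0, 3.87 and 3.87 in ACI and 5.13, 4.52, 4.86, 3.87 and 4.82 in BN. All BN rats but rat 4 were above the ACI rats, and the difference was -0.86 (SE 0.230, limma adjusted p = 0.0437), with ACI levels at the edge of background. Ccne2 had a difference of 0.42 (limma adjusted p = 0.461).

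All 6 mitotic entry genes had a positive difference, and Cks2 was the called one. Cks2, a small subunit that binds Cdk1, measured 9.02, 9.14, 9.35, 9.06 and 9.49 in ACI and 8.49, 8.68, 8.57, 8.60 and 7.80 in BN. The strains did not overlap, and the difference was 0.78 (SE 0.179, limma adjusted p = 0.0236). Ccna2, cyclin A2, measured 8.33, 8.56, 8.73, 8.89 and 9.21 against 8.0, 7.73, 7.98, 8.12 and 6.66. It did not overlap either, but its difference of 1.05 missed the threshold (SE 0.298, limma adjusted p = 0.0558). Cdk1, the mitotic kinase itself, measured 7.72, 7.25, 7.45, 7.62 and 7.81 in ACI and 6.75, 6.87, 7.34, 6.19 and 5.20 in BN. BN rat 3 was level with the ACI rats, BN rat 5 was far below them, and the difference was 1.10 (SE 0.371, limma adjusted p = 0.0976).

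Ccnb1, cyclin B1 and the partner of Cdk1, had a smaller strain difference, although the BN rats stood in the same order for both genes. Its levels were 6.38, 6.59, 6.59, 6.69 and 6.81 in ACI and 6.77, 6.82, 7.14, 5.99 and 5.16 in BN. BN rats 2 and 3 stood above all ACI rats, BN rats 4 and 5 below them all, and the difference was 0.24 (SE 0.356, limma adjusted p = 0.773). Ccnb2 and the phosphatase gene Cdc25b had differences of 0.54 and 0.01, neither called.

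Neither gene of the anaphase-promoting complex group was called. Ube2c, its ubiquitin-conjugating enzyme, measured 7.49, 7.14, 6.78, 6.82 and 6.97 in ACI and 6.48, 6.65, 6.91, 6.22 and 4.66 in BN, a difference of 0.86 (SE 0.407, limma adjusted p = 0.244). Cdc20, its activator, measured 5.49, 5.35, 4.98, 5.95 and 5.47 in ACI and 4.73, 4.85, 4.98, 4.73 and 3.92 in BN, a difference of 0.81 (SE 0.237, limma adjusted p = 0.0618). The strains met at 4.98 in ACI rat 3 and BN rat 3. Of 4 further Cdc20 probe sets, 1 gave 0.17 and the others were near background.

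The spindle checkpoint group held 1 call, toward BN. Mad2l1, which keeps Cdc20 inactive until kinetochores are attached, measured 5.99, 6.34, 6.44, 6.29 and 6.41 in ACI and 7.42, 7.01, 7.01, 7.0 and 6.44 in BN. All BN rats but rat 5 exceeded the ACI rats, and the difference was -0.68 (SE 0.171, limma adjusted p = 0.0347). Its 2 other probe sets, with mean levels under 4, gave -0.15 and -0.19 and were not called. The checkpoint kinase genes Bub1, Bub1b and Ttk and the kinetochore gene Cenpf had differences of 0.22 to 0.27, none called. For Bub1b the deposited value was the same, 5.26, in 5 rats.

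Aurka, the spindle pole kinase, measured 5.85, 5.91, 6.0, 5.82 and 6.01 in ACI and 5.23, 5.55, 5.36, 5.01 and 4.76 in BN. The ACI rats lay close together and above every BN rat, and the difference was 0.74 (SE 0.139, limma adjusted p = 0.0103). Aurkb, the kinase of the chromosomal passenger complex, differed by -0.15 (limma adjusted p = 0.697). Birc5, survivin, of the same complex, was near background, at 3.35, 3.28, 3.42, 3.57 and 3.22 in ACI and 3.14, 3.28, 3.28, 3.28 and 3.28 in BN, as was Plk1 (2.91 to 3.36 over all rats). For these 2 members no strain difference could be read.

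Both spindle assembly genes were uncalled. Kif11, the kinesin that pushes spindle poles apart, measured 5.61, 5.67, 5.86, 5.83 and 6.21 in ACI and 5.58, 5.02, 5.62, 5.11 and 3.91 in BN, a difference of 0.79 (SE 0.318, limma adjusted p = 0.165). Prc1, which bundles midzone microtubules, had the widest spread of the panel, from 3.70 in BN rat 5 to 7.66 in BN rat 3, against 5.81 to 6.55 in ACI.

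Ect2, the exchange factor that activates RhoA at the cleavage furrow, led the cytokinesis genes. It measured 8.51, 9.43, 9.37, 9.31 and 9.26 in ACI and 7.21, 7.14, 7.83, 8.36 and 7.42 in BN. ACI rat 1 was low for its strain yet above all BN rats, and the difference was 1.58 (SE 0.276, limma adjusted p = 0.00697), 3.0-fold. Racgap1, which recruits Ect2 as part of centralspindlin, measured 7.82, 7.45, 7.85, 7.85 and 8.14 in ACI and 7.21, 7.29, 7.57, 6.68 and 4.84 in BN, a difference of 1.10 (SE 0.491, limma adjusted p = 0.208). A dimmer Racgap1 probe set was called, at 3.17 to 4.94 in ACI and near background in BN (2.71 to 2.87; limma adjusted p = 0.0225). Kif23, the other centralspindlin subunit, and Kif20a had differences of 0.62 and 0.54, neither called.

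Of the chromosome structure genes, 2 of 3 were called. Smc4, a condensin subunit, measured 7.41, 6.85, 7.44, 7.58 and 8.60 in ACI and 6.08, 6.08, 5.58, 6.10 and 5.73 in BN. The strains did not overlap, and the difference was 1.66 (SE 0.297, limma adjusted p = 0.00795), 3.16-fold. A second, dimmer Smc4 probe set, at 3.97 to 4.38 in ACI and 4.0 to 4.67 in BN, gave -0.22 (limma adjusted p = 0.451), and the mean of both probe sets, 0.72, was not called. Smc2, its partner in condensin, differed by 0.36 (limma adjusted p = 0.579). Top2a, the topoisomerase that untangles sister chromatids, measured 8.71, 8.24, 8.73, 9.01 and 8.93 in ACI and 7.77, 7.49, 8.17, 7.36 and 6.36 in BN. BN rat 3 came close to ACI rat 2 without reaching it, and the difference was 1.29 (SE 0.322, limma adjusted p = 0.0333), 2.45-fold. Its second, dimmer probe set was also called, at 0.76 (limma adjusted p = 0.0238). There the strains overlapped, at 6.40 to 7.32 in ACI and 6.12 to 6.50 in BN, and BN rat 5, at 6.17, was not the lowest.

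Mki67, the usual proliferation marker, measured 8.92, 8.60, 8.91, 9.17 and 9.27 in ACI and 9.25, 9.32, 9.52, 8.57 and 7.42 in BN. BN rat 3 was the highest of all rats and BN rat 5 the lowest, and the strain means of 8.97 ± 0.261 and 8.82 ± 0.858 differed by 0.16 (SE 0.391, limma adjusted p = 0.958). The 9 calls did not rest equally on all rats. Leaving out 1 rat at a time kept Aurka, Ect2 and Smc4 in all 10 runs, Cks2 in 6, Mcm2 and Top2a in 3 each, Mcm4 in 2, and Ccne1 and Mad2l1 in 1 each. Over all members, the calls toward ACI then numbered 3 when ACI rat 3 or BN rat 1 was dropped, 4 when BN rat 2 or any of ACI rats 2, 4 and 5 was dropped, and 6 otherwise, and those toward BN 0 or 1 (1 without BN rat 3, 4 or 5). These counts include members outside the 9: Cdk1 toward ACI and Mcm3 toward BN without BN rat 3, and Ccna2 toward ACI without BN rat 5. The share of all genes called moved as well. With 1 rat dropped it was 5.58% to 8.10% toward ACI and 6.17% to 11.7% toward BN, against 8.29% and 9.12% with all rats. In the runs with 3 calls toward ACI it was 6.06% (without ACI rat 3) and 6.10% (without BN rat 1).

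**Figure D2:**
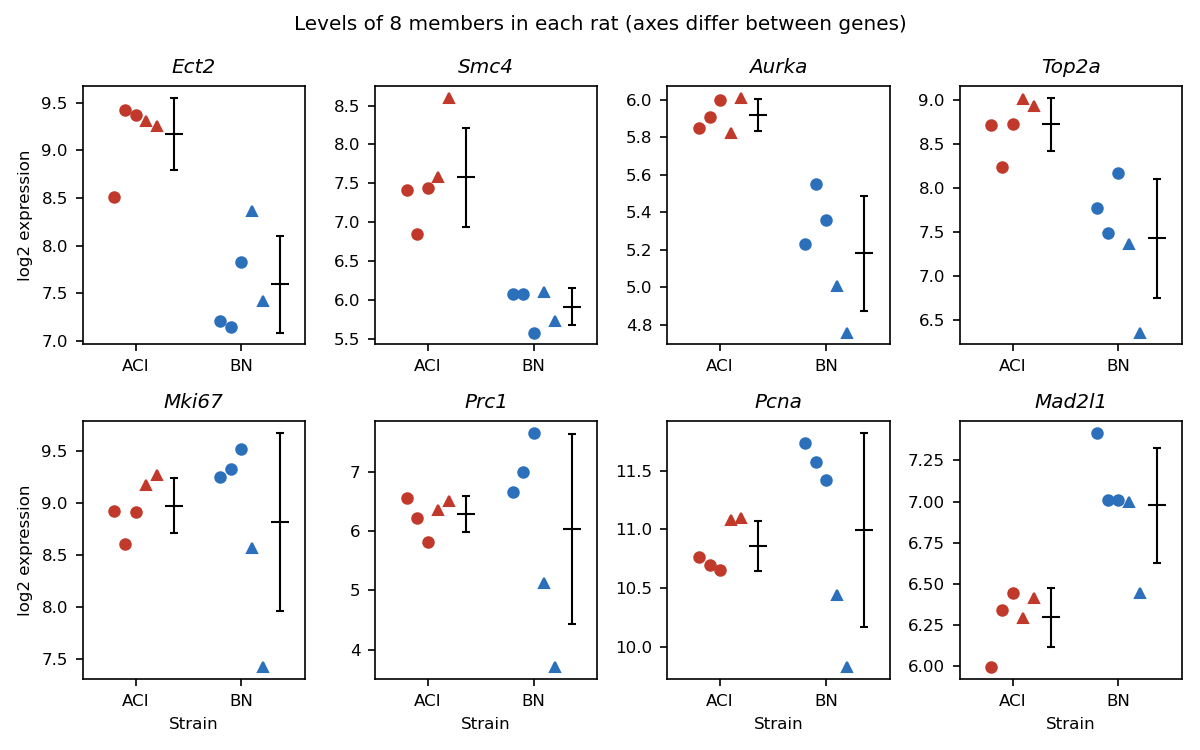
Points are single rats (circles, animal IDs opening with S; triangles, IDs opening with H), in red for ACI and blue for BN, with the mean and SD of 5 rats beside them, on the log2 scale with an axis per gene. Ect2, Smc4, Aurka and Top2a separate the strains, whereas Mki67, Prc1 and Pcna put BN circles at or above the ACI rats and BN triangles below them.

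S-phase and mitotic members differed in balance. Of the 11 S-phase members, 6 had a positive and 5 a negative difference, with a median of 0.09, 2 calls toward ACI and 1 toward BN. Of the 27 mitotic members, 24 were positive and 3 negative, with a median of 0.54, 5 calls toward ACI and 1 toward BN. The median over all genes was 0.00. These counts describe the classes and carry no test.

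To set the classes side by side within a rat, each member above background was centred on its mean over the 10 rats and averaged over 11 S-phase and 25 mitotic members. The mitotic means of ACI rats 1 to 5 were 0.24, 0.14, 0.22, 0.36 and 0.50. Those of BN rats 1 to 5 were 0.03, -0.04, 0.22, -0.34 and -1.34. BN rat 3 stood within the ACI range and BN rat 5 far under the rest. The S-phase means were -0.13, -0.14, 0.02, 0.10 and 0.27 in ACI and 0.21, 0.06, 0.0, -0.04 and -0.35 in BN. The strains overlapped, and BN rat 1 was second only to ACI rat 5. Subtracting mitotic from S-phase means gave -0.37, -0.27, -0.20, -0.26 and -0.23 in ACI and 0.18, 0.10, -0.22, 0.29 and 0.99 in BN. Relative to these 10-rat means, S-phase members were thus low against mitotic members in every ACI rat and in BN rat 3, and high against them in the other 4 BN rats.

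**Figure D3:**
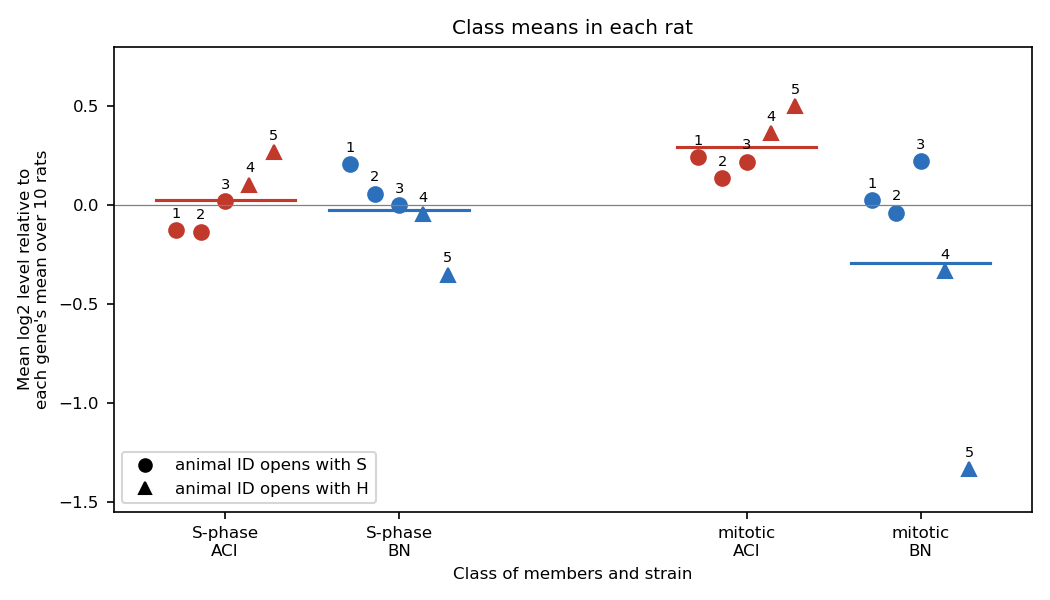
Each point is 1 rat's mean over 11 S-phase or 25 mitotic members, as log2 level relative to each gene's mean over 10 rats; numbers name the rat, lines are strain means, and triangles are rats whose animal IDs open with H. The mitotic means of BN fall from 0.22 in rat 3 to -1.34 in rat 5, while ACI rats stay between 0.14 and 0.50.

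The order of rats was shared by most members. BN rat 5 was the lowest BN rat in 28 of 36 members, 21 of 25 mitotic and 7 of 11 S-phase, against 47.01% of the 10098 genes above background, on which all shares of this kind rest. Its array was low as a whole: the median of its expressed probe sets was 0.32 under the mean of the arrays. With each array centred on that median, BN rat 5 was lowest in 18 of 25 mitotic members, with a mean of -1.01, but in 2 of 11 S-phase members, with a mean of -0.03, against 21.4% of genes above background. After quantile normalization these counts were 19 and 2, with means of -1.06 and -0.07, against 26.7% of genes above background. Its low mitotic level thus remained under both scalings, and its low S-phase level did not.

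BN rat 3 was the highest BN rat in 16 of 25 mitotic members as deposited, centred and quantile normalized, against 24.0%, 19.0% and 20.1% of genes above background. In S-phase members it was highest in 3 of 11 as deposited and in 2 of 11 under either scaling. ACI rat 5 was the highest ACI rat in 20 of 36 members (26.1% of genes above background), among them Ccna2, Cdk1, Cks2, Smc4 and Mki67, and ACI rat 1 the lowest in 13 (17.8%). As deposited, members varied more among BN than among ACI rats: the SD was larger in BN for 31 of 36 (86.1%), compared with 74.1% of all genes above background. These SDs include the low array of BN rat 5 and were not computed under the other scalings. The median SD of all 27 mitotic members, near-background Plk1 and Birc5 included, was 0.245 in ACI and 0.674 in BN. That of S-phase members was 0.240 and 0.333.

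**Figure D4:**
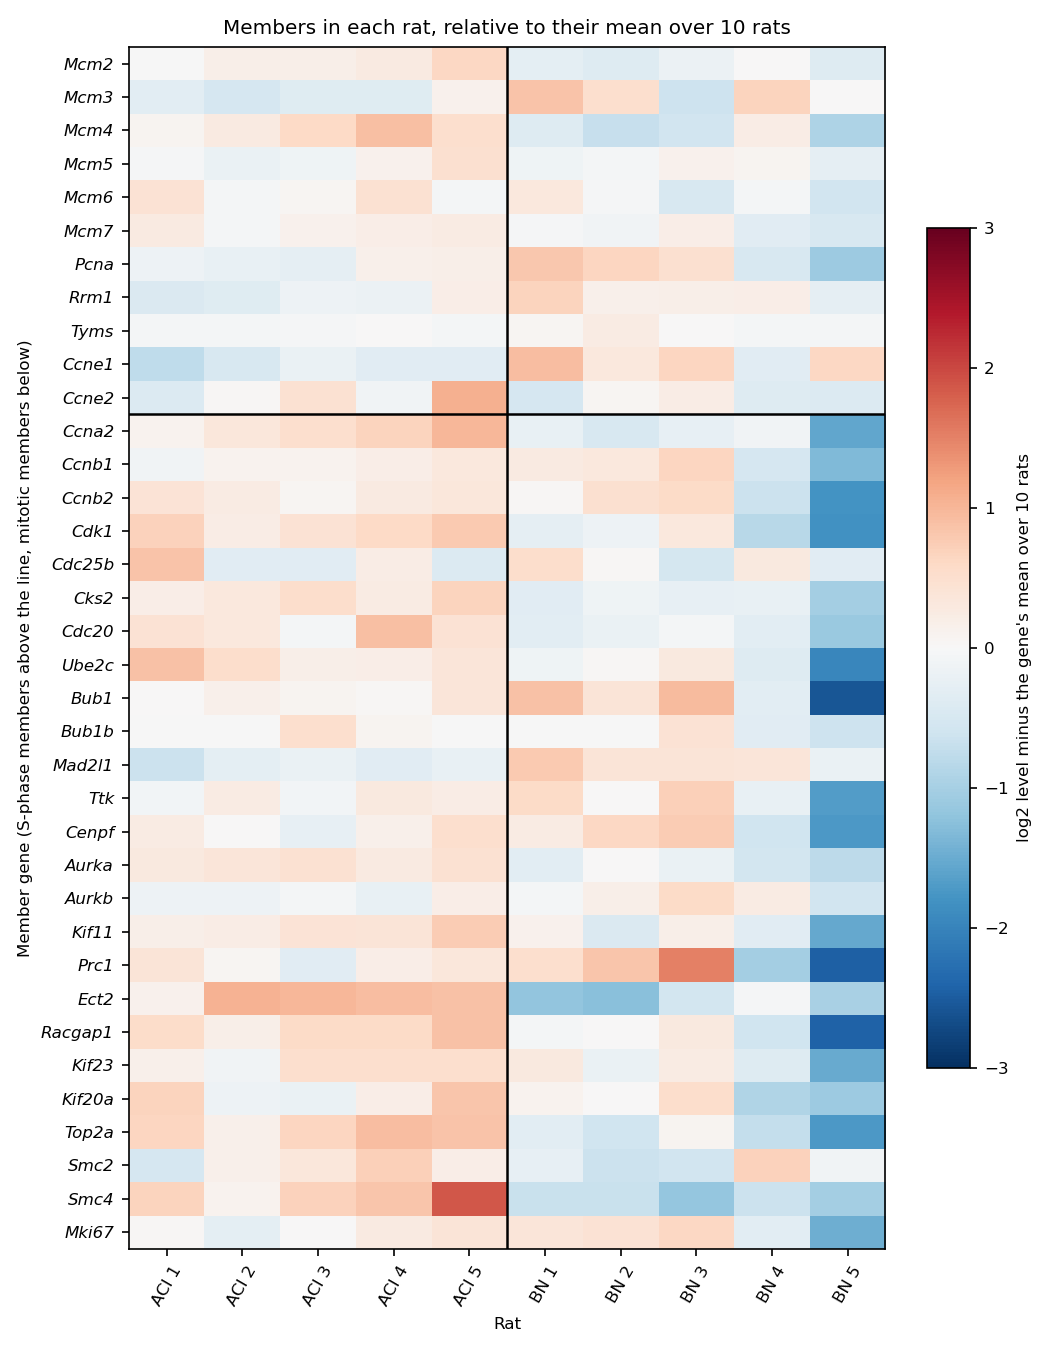
Colour gives the log2 level of each of 36 members (rows, S-phase above the line and mitotic below, in order of role) in each of 10 rats (columns), minus that gene's mean over the 10 rats. The BN rat 5 column is blue through nearly all mitotic members, most deeply in Bub1, Prc1 and Racgap1, and BN rat 3 is red in Prc1, Bub1 and Cenpf.

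Marker lists of other cell types also differed between BN rats. The mean level of 14 luminal epithelial markers was 9.20 to 9.48 in ACI and 8.48, 8.76, 9.08, 8.52 and 8.26 in BN rats 1 to 5. BN rat 3 was the highest BN rat and BN rat 5 the lowest as deposited. With arrays centred, the luminal means of BN were 8.38, 8.69, 9.0, 8.51 and 8.58, so BN rat 3 stayed highest and BN rat 1 became the lowest, as it did after quantile normalization. Macrophage markers had the same highest and lowest BN rats, at 10.23, 10.31, 10.605, 10.26 and 9.99 as deposited, and again BN rat 1 lowest under either scaling. Of the luminal markers 5 were called toward ACI, and Esr1 and Foxa1 were listed at 2.23 in every rat. The mean of 10 B and plasma cell markers was 4.45 to 4.53 in ACI and 9.16, 8.47, 5.59, 8.65 and 8.26 in BN. Of these markers 7 were called toward BN and 1, Xbp1, toward ACI. Xbp1 differed by 1.35 (limma adjusted p = 0.0144), with every ACI rat above every BN rat. For 13 T cell markers it was 4.44 to 4.89 in ACI and 7.56, 6.75, 4.87, 7.24 and 6.87 in BN, with 7 called toward BN. BN rat 3 had the lowest mean of its strain in both of these lists and the highest mitotic mean, although Xbp1 was highest in BN rat 3. Of 6 germinal centre B cell markers, whose mean was 5.60 to 5.80 in ACI and 6.65 to 7.14 in BN, 4 were called toward BN. Adipocyte markers were highest in BN rats 4 and 5, at 10.75 and 10.70, against 9.12 to 10.29 in the other 8 rats. Skeletal muscle markers ranged from 6.48 to 10.71 in ACI and were 3.57, 6.85, 3.52, 6.99 and 9.67 in BN rats 1 to 5. BN rat 3 was thus the lowest BN rat and BN rat 5 the highest, as they were under either scaling. Of 13 muscle markers 12 had a positive difference, with a median of 3.16, and none was called. Of 12 macrophage markers, at 9.15 to 9.73 in ACI, 6 were called toward BN, as were 4 of 8 endothelial markers, at 6.13 to 6.955 in ACI and 7.44 to 8.28 in BN. Basal and myoepithelial markers averaged 8.48 to 8.82 in ACI and 7.97 to 8.53 in BN, with 3 of 10 called toward ACI. The mean of 5 secretory (milk protein) genes was 14.91 to 15.03 in ACI and 14.62 to 14.84 in BN, with 3 called toward ACI and 1 toward BN. As deposited and quantile normalized no BN rat reached the ACI rats in it, but with arrays centred BN rat 5 did (14.94). The part of cell composition in the member differences was not tested.

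The ID series split the strain difference of many members. Within the 3 rats per strain with S IDs, the median difference was -0.10 for S-phase and 0.06 for mitotic members. Within the 2 rats per strain with H IDs, it was 0.51 and 1.40. These mitotic medians are over all 27 members, near-background Plk1 and Birc5 included. The 36 members above background had medians of 0.06 in the S series and 1.125 in the H series. Over all genes above background the medians were -0.06 and 0.085. In the S series alone, limma called Mcm4, Cks2, Aurka, Ect2 and Smc4 toward ACI (8.28% of genes) and Pcna, Ccne1 and Mad2l1 toward BN (11.5%). In the H series alone it called 0 members at an adjusted p under 0.05 (0.394% of genes) and, at an unadjusted p under 0.05, 6 toward ACI and 0 toward BN, against 19.4% of genes in either direction. All 6 were among the 36 members above background, and 13.8% of such genes passed toward ACI, so the count lay near the background.

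Pcna was the member whose strain difference itself differed between series. It was -0.86 in the S series and 0.96 in the H series, and the limma interaction was 1.82 (adjusted p = 0.0244), a call made for 3.01% of genes. When BN rat 2, ACI rat 2 or ACI rat 3 was dropped, the Pcna interaction was 1.79 to 1.82 but no longer called. These fits called 0.577% to 1.05% of genes. Prc1 went from -0.91 to 2.01, an interaction of 2.92 (adjusted p = 0.0862), Mki67 from -0.55 to 1.23, an interaction of 1.78 (adjusted p = 0.0980), and Ccnb1 from -0.39 to 1.18, an interaction of 1.57 (adjusted p = 0.0744). The interaction was positive in 33 of 36 members above background, with a median of 0.82, against 0.17 over genes above background. Over all 27 mitotic members, near-background Plk1 and Birc5 included, the median was 1.02, and over the S-phase members 0.49. At an unadjusted p under 0.05 it stood in 16 of 36 members, against 29.8% of those genes. When low probe sets were filtered out it was called in 8 members (Pcna, Ccnb1, Ccnb2, Cdk1, Cenpf, Prc1, Kif20a and Mki67, with 12.1% of genes). After quantile normalization it was called in Pcna alone, with 4.09% of genes. A fit without BN rat 4 leaves BN rat 5, the low array, alone in its group, and a fit without BN rat 5 leaves BN rat 4 alone. Likewise a fit without ACI rat 4 or ACI rat 5 leaves the other alone. Such a fit takes its spread from the other 3 groups and assumes that the lone rat varies like them, so its calls are not counted.

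The 5 members called toward ACI in the S series kept an ACI excess in both series, of 1.71 and 1.40 for Ect2, 1.32 and 2.175 for Smc4, 0.54 and 1.03 for Aurka, 0.59 and 1.08 for Cks2, and 0.86 and 1.05 for Mcm4. So did Top2a (0.75 and 2.11) and Mcm2 (0.39 and 0.635), the other members called toward ACI over all rats, and uncalled members such as Cdk1 (0.49 and 2.02). Without BN rats 4 and 5, Bub1 turned to -0.61 (limma adjusted p = 0.0330) and Prc1 and Mki67 to -0.82 and -0.39, while calls numbered 8 toward ACI and 4 toward BN, with 10.5% and 15.6% of genes.

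**Figure D5:**
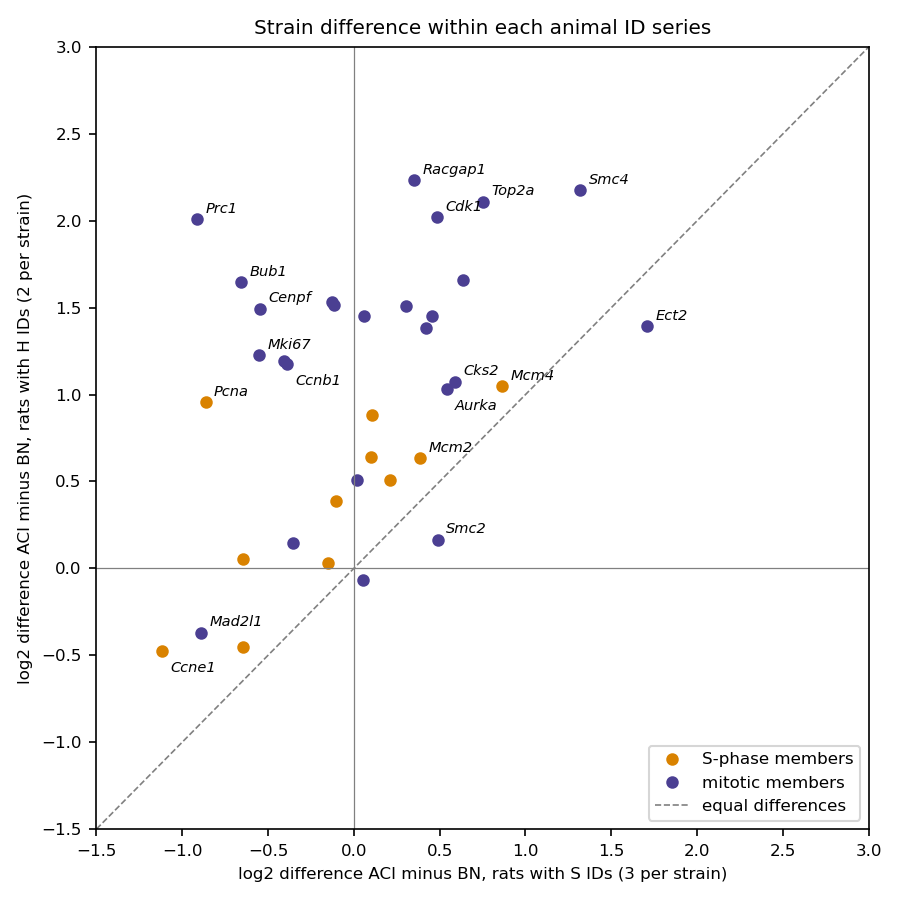
Each point is 1 of 36 members, with its log2 difference (ACI minus BN) among 3 rats per strain with S IDs on the horizontal axis and among 2 rats per strain with H IDs on the vertical axis; the dashed line marks equal differences. Of the members, 33 lie above the line, and Pcna, Prc1, Bub1, Cenpf, Mki67 and Ccnb1 lie in the upper left, negative in one series and positive in the other.

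Other genes of the same processes were taken from a list chosen by role. Of 127 measured genes of a list of 144 (replication, mitosis and cell cycle regulators), 13 (10.2%) were called toward ACI and 4 (3.15%) toward BN, with a median of 0.09, against 8.29% and 9.12% of all genes. Among 41 replication genes the calls were 3 (7.32%) and 1, among 60 mitotic genes 7 (11.7%) and 1, and among 26 regulators 3 (11.5%) and 2, so the shares toward ACI lay near those of all genes. Toward ACI the largest called differences were those of E2f2, Myc, Zwilch, Kifc1 and Incenp. E2f2, an activating E2F factor, measured 4.75, 4.51, 4.69, 4.60 and 5.41 in ACI and 3.14, 2.95, 3.48, 2.61 and 2.80, near background, in BN, a difference of 1.80 (SE 0.213, limma adjusted p = 0.00116). Myc, a growth-promoting transcription factor, measured 10.53, 10.28, 10.20, 10.67 and 10.32 against 8.35, 8.57, 8.67, 9.29 and 9.38, a difference of 1.55 (SE 0.217, limma adjusted p = 0.00245). Zwilch, of the kinetochore, Kifc1, a minus-end kinesin, and Incenp, the scaffold of the passenger complex, differed by 1.53, 1.42 and 1.26. Incenp was near background in BN.

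All 4 genes called toward BN had every BN rat above every ACI rat. Cdkn1a, the kinase inhibitor p21, measured 5.51, 5.58, 6.10, 5.27 and 5.41 in ACI and 6.93, 7.21, 7.19, 6.83 and 6.57 in BN, a difference of -1.37 (SE 0.180, limma adjusted p = 0.00182). Rb1, the retinoblastoma protein that restrains E2F, measured 7.44, 7.17, 7.24, 7.57 and 7.57 in ACI and 8.40, 8.30, 8.63, 8.29 and 8.06 in BN, a difference of -0.94 (SE 0.121, limma adjusted p = 0.00171). Kif15, a mitotic kinesin, and Rfc1, of the clamp loader, differed by -0.76 and -0.65. E2f1, at 3.25 to 4.0, and the mitotic activators Foxm1, at 3.02 to 3.92, and Mybl2, at 2.23 to 2.74, were at or near background and differed by 0.0, -0.06 and 0.10.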

How the data were processed

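RNA from 10 mammary glands was hybridized to whole-genome Affymetrix rat arrays. The deposited values are log2 intensities that the authors had background-corrected and normalized (GCRMA 2.18.1 in the submitters' processing notes). They are rounded to 2 decimals, have a floor of 2.23, and hold no detection calls, so a value under 4 was taken as near background. Array medians were 3.35 to 3.53, and the number of arrays limits precision.

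After 57 control probe sets were removed, 31042 were fitted with limma 3.58.1 in R 4.3.3 (strain as the sole term, eBayes, Benjamini-Hochberg over all probe sets) and tested on simulated data. Of these, 20826 had 1 gene symbol, 436 several and 9780 none; names were updated by gene ID. The interaction model added ID series. Members, marker and pathway lists were chosen with earlier results of these data known. Values of every rat are given for called members, for Mki67, Pcna, Mcm2, Cdk1, Ccnb1, Aurka and Birc5, for the member of each role with the largest difference, and where probe sets disagreed; pathway genes are the 5 largest called differences in each direction with E2f1, Foxm1 and Mybl2. Ccna2 and Prc1 were added after their values were seen. Alternatives changed blocks, filters, scaling, tests, weights, probe sets and rats. Centring of arrays for the interaction, and both scalings of rat orders and marker means, were chosen after seeing the data. Promoters came from RefSeq (GRCr8).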

Additional observations from a re-analysis of the deposited data

Results flagged for a closer look

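In each strain, the highest and lowest rat of every member and class mean was set against the other 4 rats of its strain. Of 82 groups, 6 held a rat whose gap to its nearest neighbour exceeded 0.71 of the range, and chance flags about 1 in 20 groups. BN rat 5 was the low rat in 3 of them, at 6.66 for Ccna2 (others 7.73 to 8.12), at 7.80 for Cks2 (others 8.49 to 8.68) and at 3.92 for Cdc20 (others 4.73 to 4.98). ACI rat 1 was low for Ect2, at 8.51 (others 9.26 to 9.43). ACI rat 3 was high for Bub1b, at 5.77 (others 5.26 to 5.35). BN rat 1 was low for Birc5, at 3.14 against 3.28 in each of the others, where the gene was near background.

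The strain difference of Pcna differed between animals with S and H IDs by 1.82 in the limma interaction model (adjusted p = 0.0244).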

How the results depend on the processing

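The calls were computed under 15 alternatives with all or chosen rats and by leaving out each rat in turn. Rat numbers only number the rats: deviations of same-numbered rats correlated at -0.255 to 0.226, and 0 of 5 ACI rats correlated best with its own number. A replicate block on these numbers gave 1 member call toward ACI (Ect2) and 0 toward BN with limma. At an unadjusted p under 0.05 these counts were 10 and 2. The block called 4.14% and 4.55% of all genes, and 5 and 2 genes of the wider list. Calls toward BN numbered 1 with ID series as a block, a floor at 4, quantile normalization, the methods' Student test or the mean over all probe sets, and 0 with a trended and robust variance (2 unadjusted). Welch's test gave 2 member calls toward ACI, 0 toward BN (2 unadjusted) and 6 in the wider list toward ACI. It called 5.42% of all genes toward ACI and 5.51% toward BN. Array weights gave 9 member calls toward ACI (15.1% of all genes) and 4 toward BN (19.3%). Leaving out BN rats 4 and 5 gave 8 (10.5%) and 4 (15.6%). In the wider list, calls toward BN then numbered 19 and 18. Within the S series the wider list had 7 calls toward ACI and 14 toward BN, and the class medians were -0.10 (S-phase) and 0.06 (mitotic). Within the H series both lists had 0 and 0 calls (members: 6 and 0 unadjusted), and the medians were 0.51 and 1.395. Leaving out 1 rat gave 3 to 6 member calls toward ACI and 0 to 1 toward BN. In the wider list it gave 7 to 12 and 4 to 10. Of all genes, 5.58% to 8.10% were then called toward ACI and 6.17% to 11.7% toward BN. The class medians were -0.02 to 0.15 (S-phase) and 0.32 to 0.74 (mitotic). The interaction was called in 0 or 1 member when 1 rat with an S ID was left out. Without rat 4 or rat 5 of either strain, the other stands alone in its group. It is then assumed to vary like the other groups, so those calls are not counted. The interaction was called in 8 members with low probe sets filtered (12.1% of genes) and in 1 after quantile normalization (4.09%). In an alternative chosen after seeing the data, with arrays centred, it was called in 5 (7.73% of genes). The sign turned within the S series for Mcm5 (-0.10), Ccnb1 (-0.39), Ccnb2 (-0.13), Bub1 (-0.66), Ttk (-0.41), Cenpf (-0.55), Prc1 (-0.91), Kif20a (-0.11) and Mki67 (-0.55), and within the H series for Pcna (0.955), Rrm1 (0.055), Tyms (0.03), Cdc25b (-0.065), Aurkb (0.145) and Plk1 (0.13). It turned with array weights for Ccnb1 (-0.14), Cdc25b (-0.074), Bub1 (-0.36), Ttk (-0.064), Cenpf (-0.31), Prc1 (-0.52) and Mki67 (-0.28), and without BN rats 4 and 5 for Ccnb1 (-0.30), Ccnb2 (-0.10), Cdc25b (-0.0087), Bub1 (-0.61), Bub1b (-0.03), Ttk (-0.32), Cenpf (-0.41), Prc1 (-0.82) and Mki67 (-0.39). It also turned for Cdc25b (-0.0056) and Plk1 (0.11) after quantile normalization, for Cdc25b (-0.022) after centring, and for Cdc20 (-0.014) without probe sets of types s, x and a, where the remaining one was near background. With 1 rat left out, Bub1 ran from -0.35 to 0.535, Ccnb1 from -0.068 to 0.43, Cdc25b from -0.21 to 0.14, Cenpf from -0.13 to 0.50, Mcm5 from -0.017 to 0.15, Mki67 from -0.19 to 0.33, Pcna from -0.43 to 0.047, Plk1 from -0.07 to 0.06, Prc1 from -0.33 to 0.66 and Ttk from -0.15 to 0.44. None of the 9 called members changed sign in any of these runs. The causes were not tested.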
